A study of Mus musculus with 8 samples.

Results

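Sdr9c7, a short-chain dehydrogenase gene, was examined with 9 other genes of retinoid metabolism in mouse liver: Rdh7, Rdh9, Rdh11, Rdh16, Adh1, Aldh1a1, Aldh1a7, Rbp4 and Cyp26a1. These 10 genes were taken by symbol from the 24972 genes listed, as Sdr9c7 with its neighbouring retinol dehydrogenases and other enzymes or carriers of retinoids. The choice was made with the difference between the ATF3 and Null livers known, so the values of the 10 genes in that contrast, and whether they passed its threshold, are given as a description, with no p-value. All 10 passed the filter on low values, a normalized count of at least 10 in at least 4 libraries, and none passed it through 1 group alone.

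The ATF3 group consisted of 4 libraries from livers of C57BL/6J mice given AAV8-ALB-ATF3, an adeno-associated virus named for the stress-induced transcription factor ATF3. The Null group consisted of 4 libraries from mice of the same strain given AAV8-ALB-Null, the virus named for no gene, so both groups carried a viral vector and no uninjected mice were analysed here. The virus was injected into a vein at 10 weeks of age, and liver RNA was taken 8 weeks later, at 18 weeks. ALB in both names was read as the albumin promoter, which is active in hepatocytes. The series text speaks of 8 mice in each group, and whether a library is 1 mouse is not labelled, so a p-value here reflects only how far the 4 libraries of a group spread, which may be partly technical.

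Vitamin A reaches the liver as retinyl esters and is stored mainly in hepatic stellate cells, whereas hepatocytes make the plasma carrier that exports retinol. Retinol is oxidised to retinaldehyde by short-chain and alcohol dehydrogenases in a reversible step, and retinaldehyde is oxidised to retinoic acid by aldehyde dehydrogenases in an irreversible one. Retinoic acid binds the RAR and RXR nuclear receptors and is removed by cytochrome P450 hydroxylases, of which Cyp26a1 is itself induced by retinoic acid in many tissues.

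The deposited normalized counts, which are read counts divided by a factor per library, summed to between 23919300 and 28446000 per library. Depth was roughly estimated at 17168500 to 48547300 reads per library. Atf3 averaged 6318 ± 680.5 normalized counts in ATF3 livers and 22.9 ± 1.92 in Null livers (SD, n = 4 each). The hepatocyte markers Alb, Apoa2, Apob, Hnf4a, Trf, Fgb, Ahsg and Ttr were all present. Their summed counts were 3556290 to 4236960 in ATF3 livers and 2667890 to 4068250 in Null livers, where the groups overlapped through Null 4 alone, and 1 of the 8, Ttr, rose. Null 4 stood apart from the other 7 libraries on the second principal component, which held 16.7% of the variance. Values without Null 4 are given for most of the 10 genes and wherever its removal changed the call of a gene named here. Other genes on the lists below also changed their call without it and are only counted.

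Of the 10 genes, 5 were higher and 3 were lower in ATF3 livers at an adjusted p under 0.05 in a limma fit to all 13301 genes tested. That threshold was passed by 21.2% of all genes tested, by 11.4% as higher and 9.82% as lower. The ATF3 and Null libraries did not overlap for 8 of the 10 genes, against 26.3% of all genes tested. Nothing is read from these counts, because the genes were chosen on this contrast. The 5 higher genes were Rdh9, Rdh11, Adh1, Aldh1a1 and Aldh1a7, the 3 lower genes were Sdr9c7, Rdh7 and Rdh16, and Rbp4 and Cyp26a1 did not pass. Rdh16 no longer passed without ATF3 1, ATF3 3 or ATF3 4. Rbp4 passed as lower without Null 4, and also in a fit with library weights, which in each case made 4 lower genes.

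**Figure D1:**
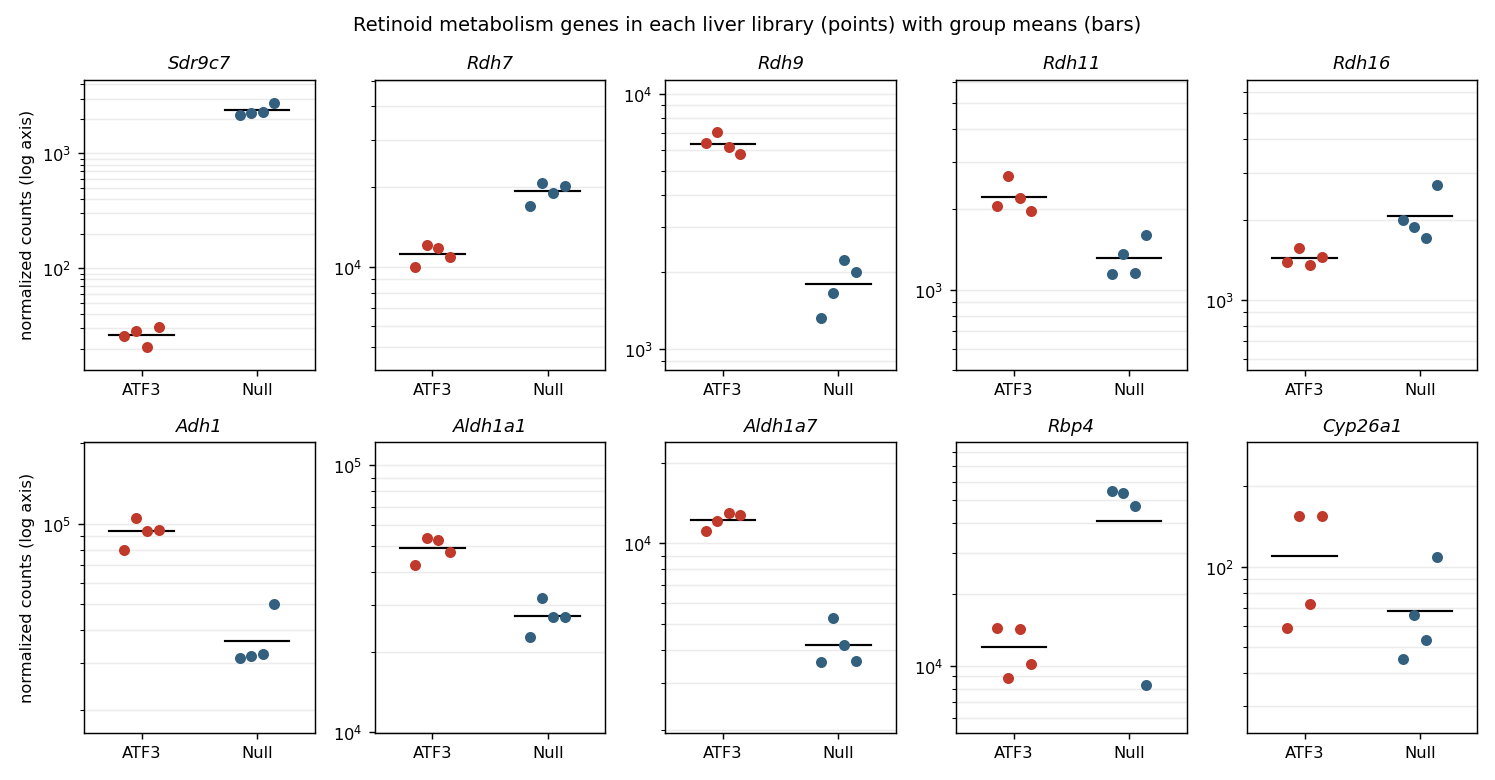
Normalized counts of the 10 genes (log axis) in the 4 ATF3 libraries (red, left) and the 4 Null libraries (blue, right), with replicates 1 to 4 from left to right in each group and the group mean as a bar. Sdr9c7 sits between 20.8 and 30.8 in ATF3 livers and between 2159 and 2735 in Null livers, and the groups overlap only for Rbp4, through Null 4, and for Cyp26a1.

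Sdr9c7 belongs to the SDR9C group of short-chain dehydrogenases, which also holds several retinol dehydrogenases, and in human skin it is needed for the water barrier of the epidermis. It lies on the plus strand of chromosome 10, from 127898518 to 127911761 in mm10. Sdr9c7 had 25.8, 28.5, 20.8 and 30.8 normalized counts in ATF3 1 to 4, against 2159, 2258, 2303 and 2735 in Null 1 to 4. Every ATF3 library lay far under every Null library, and the spread within a group was small, with a coefficient of variation of 16.3% in ATF3 livers and 10.8% in Null livers. The mean was 26.5 ± 4.32 in ATF3 livers and 2364 ± 255 in Null livers (SD, n = 4 each), which is 89.3-fold lower in ATF3 livers. The log2 difference was -6.44 (SE 0.14), and without Null 4 it was -6.36. Only 10 of the 13301 genes tested had a more negative log2 difference. Of its 3033 distinct 31-base stretches, 0% occurred in transcripts of other genes, so its reads could be assigned to it alone. In such whole-liver RNA, fewer cells of a type and less RNA per cell cannot be told apart.

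The promoter window of Sdr9c7 is shown because it carries the lowest of the 10 genes in ATF3 livers. The window runs from 250 bases before to 50 bases after the RefSeq start, at chr10:127898285-127898584 on the plus strand of GRCm38.p6, the assembly of mm10. A TATAAA match, the core of a TATA box, is in capitals and begins 42 bases before the start.
Sdr9c7: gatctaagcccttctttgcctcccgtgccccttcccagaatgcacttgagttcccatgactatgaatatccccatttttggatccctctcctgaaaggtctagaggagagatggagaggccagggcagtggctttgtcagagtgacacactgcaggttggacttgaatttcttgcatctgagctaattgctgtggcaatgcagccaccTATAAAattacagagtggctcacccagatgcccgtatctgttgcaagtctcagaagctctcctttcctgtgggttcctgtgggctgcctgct
TATAAA was found, as printed, in 8.32% of all 32851 promoter windows of this length. Neither the cyclic AMP response element TGACGTCA nor its core TGACG, which is part of that element, nor the AP-1 site TGACTCA was found on either strand of the Sdr9c7 window. The shares of all windows holding them were 1.79%, 20.8% and 5.2%. These matches and their absence describe letters in this window and say nothing of binding.

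Rdh7, Rdh9 and Rdh16 are neighbours of Sdr9c7 on chromosome 10 and encode, in the mouse, cis-retinol/androgen dehydrogenases of the endoplasmic reticulum. They did not share a direction. Rdh7, on the minus strand at 127884028 to 127888817, is the closest, and had 9992, 12142, 11829 and 10954 normalized counts in ATF3 1 to 4, against 16954, 20697, 19028 and 20187 in Null 1 to 4. Rdh7 was lower in every ATF3 library, with means of 11229 ± 966 in ATF3 livers and 19217 ± 1662 in Null livers (SD, n = 4 each) and a log2 difference of -0.77 (SE 0.10). Rdh16, on the plus strand at 127801152 to 127846565, had 1388, 1565, 1350.5 and 1455 in ATF3 1 to 4, against 1999, 1880.2, 1710.5 and 2704 in Null 1 to 4. The groups for Rdh16 did not overlap, but the gap between them was narrow and the log2 difference of -0.51 (SE 0.14) was -0.37 without Null 4, its highest library.

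Rdh9, on the plus strand at 127776386 to 127792697, went the other way. It had 6388, 7082, 6176 and 5779.8 normalized counts in ATF3 1 to 4, against 1325, 1657, 2228 and 2004 in Null 1 to 4. The means were 6356 ± 545 in ATF3 livers and 1804 ± 396 in Null livers (SD, n = 4 each), 3.52-fold higher in ATF3 livers, with a log2 difference of 1.84 (SE 0.15). The ratio of Rdh9 to Rdh16 TPM within a library, which does not depend on how libraries are scaled against each other, was 5.44, 5.35, 5.41 and 4.70 in ATF3 1 to 4. In Null 1 to 4 the same ratio was 0.784, 1.04, 1.54 and 0.876, so Rdh9 exceeded Rdh16 in all 4 ATF3 libraries and in 2 of the 4 Null libraries.

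Part of the reads of these paralogs is shared. Of the 31-base stretches in Rdh9 transcripts, 72% occurred in transcripts of other genes, mostly of Rdh16f1 (68.3%), an annotated model that overlaps Rdh9 on the same strand and is not a row of the files. With that overlapping model left aside the share was 27.9%. It was 23.2% for Rdh16, whose model spans the pseudogene Rdh18-ps, and 20.3% for Rdh7. How the authors assigned such reads is not given in the sources used here, so the levels of Rdh7, Rdh9 and Rdh16 are less certain than that of Sdr9c7.

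The promoter windows of Rdh9 and Rdh16 are shown because the pair differed in direction while sharing sequence at the start. The Rdh9 window is chr10:127776155-127776454 and the Rdh16 window chr10:127800903-127801202, both on the plus strand of GRCm38.p6 from RefSeq. Capitals mark the longest run that both windows share, 43 bases long.
Rdh9: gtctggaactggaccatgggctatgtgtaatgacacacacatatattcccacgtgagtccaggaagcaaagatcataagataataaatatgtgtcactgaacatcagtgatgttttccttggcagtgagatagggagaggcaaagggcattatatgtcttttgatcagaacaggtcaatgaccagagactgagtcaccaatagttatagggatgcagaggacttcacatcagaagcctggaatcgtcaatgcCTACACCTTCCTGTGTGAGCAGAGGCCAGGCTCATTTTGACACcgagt
Rdh16: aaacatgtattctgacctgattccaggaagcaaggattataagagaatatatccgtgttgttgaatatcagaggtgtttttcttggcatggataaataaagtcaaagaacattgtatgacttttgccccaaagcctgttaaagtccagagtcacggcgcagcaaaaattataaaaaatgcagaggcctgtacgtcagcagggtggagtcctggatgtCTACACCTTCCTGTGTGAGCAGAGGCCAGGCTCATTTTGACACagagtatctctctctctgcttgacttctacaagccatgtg
The AP-1 site occurred in the Rdh9 window as tgagtca, the opposite strand of TGACTCA, beginning 61 bases before the start, and was not found in the Rdh16 window. The core TGACG occurred in both windows on the opposite strand, as cgtca, beginning 7 bases before the start of Rdh9 and 59 bases before that of Rdh16. The longest run that the Rdh7 windows shared with Rdh9 was 13 bases.

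Rdh11, on chromosome 12 at 79174337 to 79192293 on the minus strand, encodes a microsomal enzyme that works mainly as a retinaldehyde reductase. It had 2067, 2680, 2209 and 1968 normalized counts in ATF3 1 to 4, against 1141, 1366, 1158 and 1606 in Null 1 to 4. Every ATF3 library was higher than every Null library, with a log2 difference of 0.76 (SE 0.14) and 0.86 without Null 4.

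Per unit of transcript length, Rdh7 supplied most of the transcripts of the 5 dehydrogenase genes Sdr9c7, Rdh7, Rdh9, Rdh11 and Rdh16 in every library. Rdh7 made up 67.6% ± 1.89 of their summed TPM in ATF3 livers and 83.0% ± 1.47 in Null livers (SD, n = 4 each). Rdh9 made up 23.1%, 21.5%, 20.04% and 20.1% in ATF3 1 to 4, against 3.60%, 3.75%, 5.38% and 4.46% in Null 1 to 4. Thus the second most abundant of the 5 was Rdh9 in each ATF3 library, and in Null livers no gene other than Rdh7 was above 5.92% in any library. Sdr9c7 made up 0.0865% ± 0.0162 in ATF3 livers and 5.50% ± 0.407 in Null livers (SD, n = 4 each). The share of Rdh11 was 7.07% ± 0.524 in ATF3 livers and 2.998% ± 0.305 in Null livers, while that of Rdh16 was 4.06% ± 0.268 in ATF3 livers and 4.19% ± 0.773 in Null livers (SD, n = 4 each). The Rdh16 shares overlapped between the groups although its normalized counts did not. After rescaling TPM by the median of ratios, the 5 genes together came to 430.1 ± 33.6 in ATF3 livers and 600.4 ± 50.9 in Null livers (SD, n = 4 each). Without Null 4, the Null shares of Rdh7, Rdh9 and Sdr9c7 were 83.6%, 4.24% and 5.36%.

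**Figure D2:**
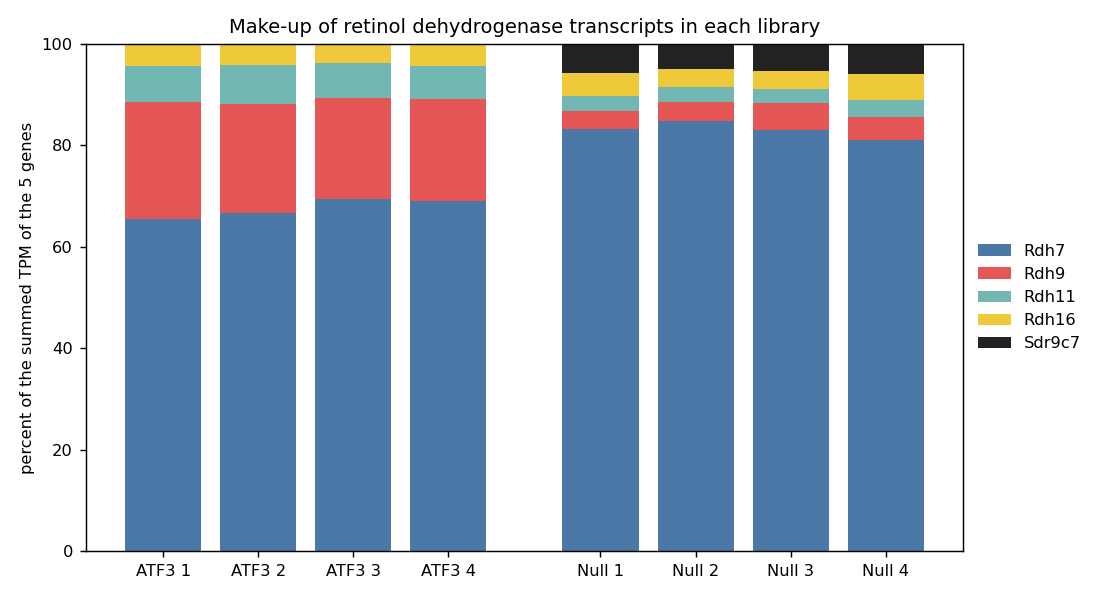
Percent of the summed TPM of Rdh7, Rdh9, Rdh11, Rdh16 and Sdr9c7 that each gene supplied, as stacked bars for the 4 ATF3 libraries (left) and the 4 Null libraries (right). Rdh9 takes 20.04% to 23.1% in ATF3 livers and 3.60% to 5.38% in Null livers, and Sdr9c7, at the top of the bars, is at most 0.105% in ATF3 livers and 4.98% to 5.92% in Null livers.

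Adh1 encodes the class I alcohol dehydrogenase of the cytosol, which oxidises ethanol and retinol, and lies on chromosome 3 from 138260991 to 138290698 on the plus strand. Adh1 had 79954, 105315, 94241 and 94667 normalized counts in ATF3 1 to 4, against 31507, 31927, 32539 and 49930.7 in Null 1 to 4. All ATF3 libraries exceeded all Null libraries, of which Null 4 was 1.56 times the mean of the other 3. The means were 93544 ± 10408 in ATF3 livers and 36476 ± 8979.9 in Null livers (SD, n = 4 each), with a log2 difference of 1.38 (SE 0.17) and 1.54 without Null 4. A small part of its 31-base stretches, 5.57%, occurred in other transcripts, mostly in Gm16559 on the opposite strand.

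Aldh1a1 encodes a retinaldehyde dehydrogenase of the cytosol, and Aldh1a7 is its paralog nearby on chromosome 19. Aldh1a1, at 20492715 to 20643465 on the plus strand, had 42512, 53302, 52602 and 47429.8 normalized counts in ATF3 1 to 4, against 22747, 31884, 27051 and 26995 in Null 1 to 4. Aldh1a7, at 20692953 to 20727562 on the minus strand, had 11083, 12141, 12968 and 12738 in ATF3 1 to 4, against 3589, 5267, 4156 and 3622 in Null 1 to 4. Both genes were higher in every ATF3 library, by a log2 difference of 0.85 (SE 0.13) for Aldh1a1 and 1.57 (SE 0.13) for Aldh1a7. The ratio of Aldh1a1 to Aldh1a7 TPM within a library was 4.05 ± 0.297 in ATF3 livers and 6.67 ± 0.614 in Null livers (SD, n = 4 each), and the libraries of the groups did not overlap. Of the 31-base stretches of Aldh1a7, 13.8% occurred in Aldh1a1 transcripts, and 5.7% of those of Aldh1a1 occurred in Aldh1a7, so reads from the shared stretches could belong to either.

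The promoter windows of Aldh1a1 and Aldh1a7 are shown because the paralogs were both higher in ATF3 livers and their starts are alike. The Aldh1a1 window is chr19:20601718-20602017 on the plus strand, the RefSeq window of the gene that shares the longer run with Aldh1a7, and the Aldh1a7 window is chr19:20727507-20727806 on the minus strand, both in GRCm38.p6. Capitals mark the longest shared run, 65 bases long, the longest among all pairs of windows of different genes of the 10.
Aldh1a1: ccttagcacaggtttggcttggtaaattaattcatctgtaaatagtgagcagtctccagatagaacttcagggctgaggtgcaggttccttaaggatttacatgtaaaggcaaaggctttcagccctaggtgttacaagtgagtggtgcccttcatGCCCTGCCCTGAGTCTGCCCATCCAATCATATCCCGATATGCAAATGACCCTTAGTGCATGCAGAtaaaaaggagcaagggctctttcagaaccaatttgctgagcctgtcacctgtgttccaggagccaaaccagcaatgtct
Aldh1a7: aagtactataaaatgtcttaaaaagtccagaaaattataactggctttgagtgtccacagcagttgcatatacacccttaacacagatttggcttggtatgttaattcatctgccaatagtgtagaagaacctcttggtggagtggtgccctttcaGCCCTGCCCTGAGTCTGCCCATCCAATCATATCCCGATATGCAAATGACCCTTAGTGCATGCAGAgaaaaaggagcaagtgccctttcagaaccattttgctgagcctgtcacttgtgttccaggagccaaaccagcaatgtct
An AP-1 site, tgactca, was found in the other RefSeq window of Aldh1a1, at chr19:20492333-20492632, and in none of the windows printed here for the pair. Among the 14 windows of the 10 genes, 3 held the AP-1 site, against 5.2% of all windows. They were windows of Rdh9, Aldh1a1 and Rbp4, and the Rbp4 mean was lower in ATF3 livers. TGACG was found in 4 of the 14, of Rdh9, Rdh11, Rdh16 and Rbp4, against 20.8% of all windows. These matches say nothing of binding.

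Rbp4 encodes the plasma retinol-binding protein, through which hepatocytes release retinol, and lies on chromosome 19 from 38116629 to 38125281 on the minus strand. It had 14479, 8896, 14231 and 10151 normalized counts in ATF3 1 to 4. Null 1 to 3 had 54969, 53777 and 47380, whereas Null 4 had 8307, under all 4 ATF3 libraries. The groups therefore overlapped through Null 4 alone, and the means were 11939 ± 2838 in ATF3 livers and 41108 ± 22120 in Null livers (SD, n = 4 each). The log2 difference was -1.49 (SE 0.53), and without Null 4 it was -2.15, with a Null mean of 52042 ± 4081 (SD, n = 3). No 31-base stretch of Rbp4 occurred in another gene. Null 4 held 0.160 times the mean of the other Null libraries for Rbp4. Among the other 9 genes this ratio ran between 0.835 for Aldh1a7 and 1.98 for Cyp26a1, with 1.56 for Adh1, 1.45 for Rdh16 and 1.22 for Sdr9c7.

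Ttr, the gene of transthyretin, which carries the retinol-binding protein in plasma, rose. Ttr had 189461, 269192, 268225 and 225005 normalized counts in ATF3 1 to 4, against 81753, 98249, 80027 and 146291 in Null 1 to 4 (log2 difference 1.26, SE 0.21, limma adjusted p = 0.00226). Null 4 was the highest Null library, and without it the Ttr difference was 1.45. The ratio of Rbp4 to Ttr TPM within a library was 0.1005, 0.0434, 0.0698 and 0.0593 in ATF3 1 to 4, against 0.884, 0.720, 0.778 and 0.0747 in Null 1 to 4. In this ratio, Null 4 thus lay inside the ATF3 range. Stra6l, a liver receptor for the retinol-binding protein in the mouse, rose with no overlap of the groups (5359 ± 594 in ATF3 livers and 3186 ± 575 in Null livers, SD, n = 4 each; log2 difference 0.76, adjusted p = 0.00381). Fabp5, which carries fatty acids and can carry retinoic acid, fell by 1.63 (SE 0.31, adjusted p = 0.00433).

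**Figure D3:**
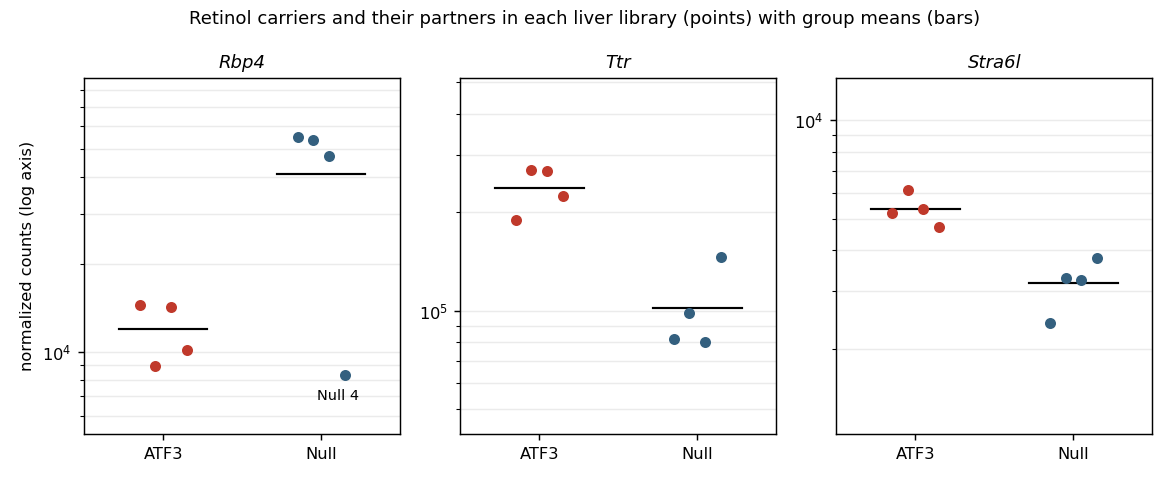
Normalized counts (log axis) of the retinol carrier Rbp4, its plasma partner Ttr and its receptor Stra6l in the 4 ATF3 libraries (red, left) and the 4 Null libraries (blue, right), with group means as bars. For Rbp4, Null 4, at 8307, lies under all 4 ATF3 libraries, while Null 1 to 3 lie above them. The groups do not overlap for Ttr and Stra6l.

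Cyp26a1 encodes the hydroxylase that clears retinoic acid, and lies on chromosome 19 from 37697798 to 37701536 on the plus strand. It had 59.0, 154, 72.2 and 154 normalized counts in ATF3 1 to 4, against 45.1, 66.1, 53.2 and 109 in Null 1 to 4. The groups overlapped, and within each of them the libraries spread widely, with a coefficient of variation of 46.8% in ATF3 livers and 41.4% in Null livers. The log2 difference was 0.63 (SE 0.37), and 0.88 without Null 4, the highest Null library.

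The Cyp26a1 promoter window is shown because it holds a retinoic acid response element of the DR5 type, a direct repeat of the receptor's binding hexamer with a 5-base spacer. The window is chr19:37697558-37697857 on the plus strand of GRCm38.p6, and the element, in capitals, reads on the opposite strand and begins 32 bases before the start.
Cyp26a1: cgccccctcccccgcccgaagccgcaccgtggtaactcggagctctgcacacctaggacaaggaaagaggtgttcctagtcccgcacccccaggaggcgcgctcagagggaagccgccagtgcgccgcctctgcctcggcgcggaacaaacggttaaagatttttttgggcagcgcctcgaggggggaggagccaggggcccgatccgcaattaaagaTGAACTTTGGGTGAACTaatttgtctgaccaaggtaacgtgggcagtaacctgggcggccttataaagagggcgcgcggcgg
A DR5 match was found in 32 of the 32851 promoter windows, or 0.0974%, and in no other window of the 10 genes. The data on this gene, with overlapping groups, give no measure of whether the element was occupied.

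The order of the 10 genes by level per transcript length differed between the groups. In ATF3 livers, the mean rescaled TPM ran from Adh1 (2738) through Aldh1a1 (979.5), Rbp4 (589), Rdh7 (291), Aldh1a7 (242), Rdh9 (91.1), Rdh11 (30.5), Rdh16 (17.4) and Cyp26a1 (2.45) to Sdr9c7 (0.370). Each gene exceeded the next in all 4 ATF3 libraries. In Null livers, the order ran from Rbp4 (2033) through Adh1 (1069), Aldh1a1 (544), Rdh7 (498), Aldh1a7 (82.3), Sdr9c7 (33.0), Rdh9 (25.9), Rdh16 (25.2) and Rdh11 (18.1) to Cyp26a1 (1.52). Rbp4 exceeded Adh1 in 3 of the 4 Null libraries and Rdh9 exceeded Rdh16 in 2 of 4, so the order within these pairs varied. The other neighbours kept theirs in all 4, though Sdr9c7 and Rdh9 were nearly equal in Null 3, at 32.2 and 32.0. Sdr9c7 was sixth in Null livers and last in ATF3 livers.

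Genes beside Sdr9c7 on chromosome 10 did not move as a block. Of 18 other genes tested with any part within 300 kb of it, 2 rose and 3 fell, against 21.2% of all genes tested. Rdh16f2, a further member of the retinol dehydrogenase cluster between Rdh16 and Rdh7, rose to 2884 ± 54.9 in ATF3 livers, against 1351 ± 187 in Null livers (SD, n = 4 each; log2 difference 1.10, SE 0.11, limma adjusted p = 6.01e-05), and 24.9% of its 31-base stretches occurred in other genes. Gls2, a glutaminase gene at the far end of the window, rose by 0.99 (adjusted p = 0.000168). Stat6 fell by 0.45 (adjusted p = 0.0108), and Nab2, of which 37.9% of the stretches occurred in other transcripts, fell by 1.24 (adjusted p = 0.00841). The pseudogene Rdh18-ps, at 11.0 normalized counts in ATF3 livers and 34.2 in Null livers on average, fell by 1.42 (adjusted p = 0.0354). Of its stretches 75.7% occurred in other genes, mostly in Rdh16, which was lower too. Rdh18-ps did not pass in rescaled TPM (log2 difference -0.28, adjusted p = 0.0719), and it failed the threshold on removal of any library except ATF3 2 or Null 3 (lowest adjusted p 0.0519, highest 0.0978). Nearest to Sdr9c7 on its other side, Hsd17b6, a hydroxysteroid and retinol dehydrogenase gene, had 7234 in ATF3 livers and 6004 in Null livers and did not pass (log2 difference 0.31, SE 0.34, adjusted p = 0.569).

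**Figure D4:**
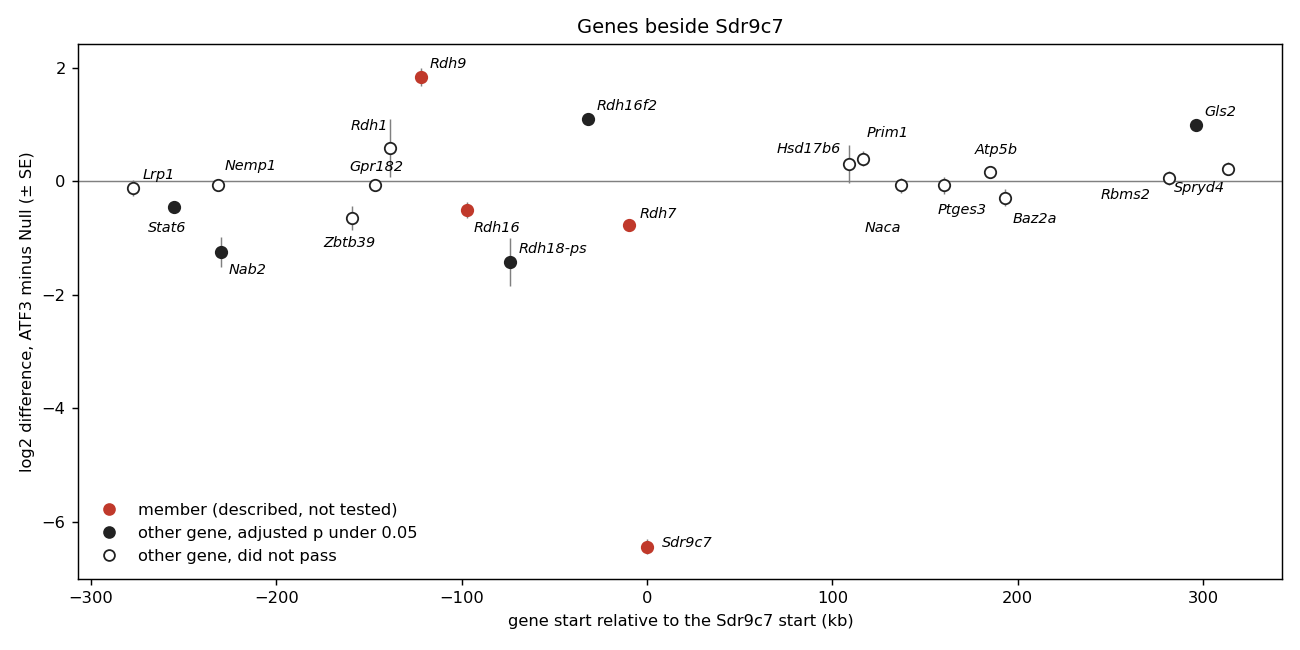
Log2 difference between ATF3 and Null livers (± SE) of the tested genes within 300 kb of Sdr9c7, by the distance of their start from the Sdr9c7 start in kb. Sdr9c7 stands alone at -6.44, its retinol dehydrogenase neighbours lie on both sides of 0, from Rdh18-ps at -1.42 to Rdh9 at 1.84, and open circles mark other genes that did not pass.

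Lrp1, Nemp1, Zbtb39, Gpr182, Rdh1, Prim1, Naca, Ptges3, Atp5b, Baz2a, Rbms2 and Spryd4 did not pass either, with log2 differences between -0.64 (Zbtb39, adjusted p = 0.0611) and 0.59 (Rdh1, adjusted p = 0.454). Zbtb39 passed without ATF3 1 or Null 4 (adjusted p = 0.023 and 0.0143), and Baz2a with library weights (adjusted p = 0.0213). Prim1, at an adjusted p of 0.0508, passed under 5 of the 10 processing alternatives (lowest adjusted p 0.0158, highest 0.0493) and without Null 4 (0.0386).

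Other genes of retinoid handling changed in both directions. Of 77 genes on 10 lists of roles, 58 were tested, of which 11 rose and 9 fell, or 34.5%, against 21.2% of all genes tested. The lists were chosen with earlier results of these data known, so nothing is read from this share. The lists include the SDR9C group of Sdr9c7. These counts therefore hold Bdh1 and Hsd17b2, which passed and encode a ketone body and a steroid dehydrogenase. The median log2 difference of the 58 was -0.12, against 0.00681 for all genes tested. Leaving out 1 library at a time gave 10 to 14 higher and 7 to 14 lower genes, with the most in both directions without Null 4. The counts by role below use all libraries, and some genes that passed only without Null 4 are not named. In the deposited TPM, on the scale described at the end, 2 rose and 0 fell.

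Among the other retinol dehydrogenases and retinaldehyde reductases, 4 of 13 rose and 1 fell. Dhrs9, a retinol dehydrogenase gene of the same SDR9C group as Sdr9c7, had 573, 602, 753 and 573 normalized counts in ATF3 1 to 4, against 95.5, 51.7, 71.0 and 29.4 in Null 1 to 4. It was higher in every ATF3 library, 10.1-fold in the means (log2 difference 3.43, SE 0.30, limma adjusted p = 3.24e-05). Dhrs7 rose by 1.11 (adjusted p = 0.000187), and Rdh10, the enzyme that starts retinoic acid synthesis in the mouse embryo, rose by 0.45 (adjusted p = 0.00825), as did Rdh16f2 above. Hsd17b13, a lipid droplet protein with retinol dehydrogenase activity, fell by 0.80 (SE 0.14, adjusted p = 0.00309). Of the SDR9C list, Bdh1, a ketone body dehydrogenase gene, rose by 0.55 (adjusted p = 0.00357) and Hsd17b2, a steroid dehydrogenase gene, fell by 1.12 (adjusted p = 5.68e-05), so 2 of 5 rose and 1 fell. None of the 3 other alcohol dehydrogenase genes tested passed: Adh4 was at -0.38 (adjusted p = 0.056), Adh5 at 0.17 (adjusted p = 0.412) and Adh7 at 0.054 (adjusted p = 0.886). Leaving out ATF3 2 gave Adh4 an adjusted p of 0.0429, and leaving out Null 1 gave 0.0147.

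Of the genes for retinaldehyde oxidation, 1 of 4 fell. Aox3, an aldehyde oxidase gene, had 6448 ± 969 normalized counts in ATF3 livers and 38101 ± 4978 in Null livers (SD, n = 4 each; log2 difference -2.57, SE 0.14, limma adjusted p = 9.58e-07). Its paralog Aox1 was at -0.15 (adjusted p = 0.565) and Aldh8a1 at -0.16 (adjusted p = 0.446), and neither passed. Of the genes for retinoic acid breakdown, 1 of 5 rose and 1 fell. Cyp2c39, a retinoic acid hydroxylase gene in mouse liver, had 528, 683, 996 and 751 in ATF3 1 to 4, against 24.1, 28.1, 22.1 and 37.2 in Null 1 to 4. All ATF3 libraries were far above all Null libraries (log2 difference 4.67, SE 0.22, adjusted p = 3.52e-07), though 26.9% of its 31-base stretches occurred in other genes, mostly Cyp2c38. Cyp3a11, a broad hydroxylase gene, fell by 1.55 (SE 0.31, adjusted p = 0.00614), and Cyp2c29 at 0.42 (adjusted p = 0.161) did not pass with all libraries but did without Null 4 (adjusted p = 0.0107).

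In vitamin A storage and release, 3 of 10 genes rose and 2 fell. The carboxylesterase genes Ces1d and Ces1g, which can hydrolyse retinyl esters, rose by 1.61 (adjusted p = 0.000973) and 0.74 (adjusted p = 0.00288), and Dgat1, which can esterify retinol, rose by 0.44 (adjusted p = 0.0234 by limma). Dgat1 failed the threshold on removal of any library except ATF3 1, Null 1 or Null 4 (lowest adjusted p 0.0558, highest 0.0715). Lipe and Lpl, lipase genes that also act on retinyl esters, fell by 0.65 (adjusted p = 0.00381) and 0.93 (adjusted p = 0.0152), and the Lpl call was lost without ATF3 3 (adjusted p = 0.0519). Of 3 genes for carotenoid cleavage and uptake, none passed, and Bco1, the enzyme that makes retinaldehyde from beta-carotene, was at -0.59 (SE 0.22, adjusted p = 0.0843), or -0.79 without Null 4 (adjusted p = 0.0067). In retinoid binding and transport, 2 of 3 rose and 1 fell, as given above with Rbp4.

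Of 11 receptors and cofactors tested, none rose and 1 fell: Ncoa2, a nuclear receptor coactivator gene, by 0.47 (adjusted p = 0.0152), a call lost without ATF3 3 or ATF3 4 (adjusted p = 0.0556 and 0.0548). Rxra, the main RXR of hepatocytes, had 11357 ± 516 normalized counts in ATF3 livers and 13876 ± 1167 in Null livers (SD, n = 4 each) and did not pass (log2 difference -0.29, SE 0.09, limma adjusted p = 0.0516), though it passed with median-of-ratios scaling (0.0473), rescaled TPM (0.0430), a filter of 50 (0.0472) and library weights (0.0147). Rarb, a receptor gene that retinoic acid induces and of whose stretches 35.7% occurred in other genes, mostly Top2b, was at -0.62 (SE 0.21, adjusted p = 0.0592) and passed without ATF3 2 or Null 3 (adjusted p = 0.0347 and 0.0493). In the list of retinoic acid target genes, 1 of 7 fell, Rai14 by 0.78 (adjusted p = 0.000254), and none rose. Tgm2, a transglutaminase gene on that list, was at -0.33 (SE 0.13, adjusted p = 0.101) and passed on removal of Null 1 (adjusted p = 0.0205).

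**Figure D5:**
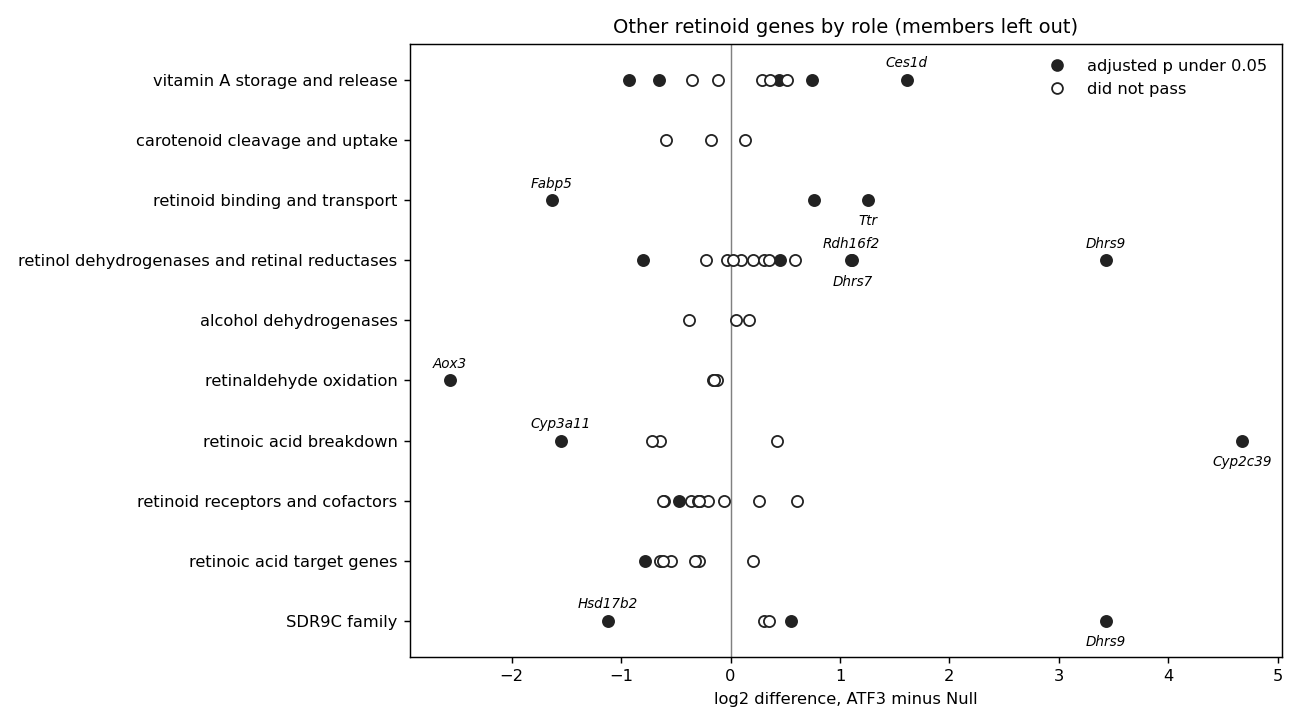
Log2 difference between ATF3 and Null livers of 58 other genes of retinoid handling or of the SDR9C group, in 10 rows by role. A gene on several lists appears in each. Filled circles passed an adjusted p of 0.05 in the fit to all genes, with names for those beyond 1 in either direction, from Aox3 at -2.57 to Cyp2c39 at 4.67.

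Summed markers of stellate cells, which hold much of the retinyl ester pool of the liver, were lower in every ATF3 library, at 9089 to 10079 normalized counts in ATF3 livers and 10346 to 11784 in Null livers. Of these 8 markers, 1 fell, Rgs5, and none rose or was at 0. The summed markers of sinusoidal endothelial cells were lower in every ATF3 library too, at 15727 to 16384 in ATF3 livers and 16602 to 18879 in Null livers. Of these 8, 1 fell, Ptprb. Summed markers of Kupffer cells were 9543 to 14125 in ATF3 livers and 8292 to 12542 in Null livers, where Null 4 was the highest and Null 1 to 3 were all under the ATF3 libraries, and none of the 8 passed. Those of cholangiocytes (893 to 1267 in ATF3 livers and 887 to 1429 in Null livers) overlapped, and Sox9 fell among the cholangiocyte markers. Markers of lymphocytes were low, and lower in every ATF3 library, at 64.8 to 79.7 in ATF3 livers and 81.4 to 124 in Null livers. Markers of neutrophils were low, at 66.7 to 107 in ATF3 livers and 63.6 to 93.9 in Null livers, with Ly6g at 0 in all libraries. Erythroid markers overlapped at 4346 to 9091 in ATF3 livers and 5153 to 10315 in Null livers. The part of these cell types in the values of the retinoid genes was not tested.

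Among 11596 other tested genes above a further floor on the mean level, the log2 values of 27 correlated with those of Sdr9c7 over the 8 libraries at a Pearson r of at least 0.99. The correlation describes these 8 libraries, which fall into their 2 groups and share the same scaling. The closest 5 were Abca8b (r = 0.998), Pcsk6 (r = 0.997), Mat1a (r = 0.996), Arl5a (r = 0.996) and Itih3 (r = 0.996). For all 5, the highest ATF3 library was under the lowest Null library. Groups did not overlap for 26.3% of all genes tested. Choosing genes by correlation with Sdr9c7 all but fixes this for the 5, so nothing is read from it. Itih3 had 788 ± 194 normalized counts in ATF3 livers and 25082 ± 3376 in Null livers, and Abca8b had 399 ± 33.8 in ATF3 livers and 2958 ± 171 in Null livers (SD, n = 4 each). The log2 differences were -5.01 for Itih3, -2.89 for Abca8b, -1.93 for Pcsk6, -1.89 for Mat1a and -0.91 for Arl5a, each smaller in size than the -6.44 of Sdr9c7.

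Some of these differences changed direction in the deposited TPM. In the deposited TPM, a single transcript, Mir6236, held between 0.308% and 89.4% of a library, most of all in Null 1, and the median log2 difference of all genes was 0.68 in place of 0.00681. On that scale, Rdh7 turned to 0.23 (SE 0.89) and Rdh16 to 0.44 (SE 0.72). Only Rdh9 and Sdr9c7 passed among the 10 genes. Rdh7 TPM was 67.6 in Null 1 and 583 to 653 in Null 2 to 4, against 293 to 475 in ATF3 livers. With the TPM rescaled by the median of ratios, the same 5 genes passed as higher and the same 3 as lower as with the normalized counts.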

How the data were processed

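Per the labels' protocols, total RNA came from a miRNA isolation kit and went into Illumina's stranded library kit. Bowtie2 and mm10 are named in the submitters' processing notes. No source used here names the quantifier or the annotation. One table deposited by the authors holds a signal, read counts divided by a factor per library, by its name a DESeq scaling. These values are not whole, so no count model was fitted. The other table that the authors deposited holds TPM, in which 26 gene names had turned into dates and were left out.

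The 13301 genes that reached a normalized count of 10 in 4 or more libraries were tested. A group model was fitted with limma 3.58.1 in R 4.3.3 to log2(value + 1) of the normalized counts (two-sided, with a mean-variance trend in eBayes) and Benjamini-Hochberg adjustment over all genes tested. A log2 difference is ATF3 minus Null on this scale, which understates the change of genes with low values. The fit was also run on simulated data with known changes, and the outcome of that run is not given here. Levels per length come from TPM divided by median-of-ratios factors, and shares and ratios within a library from TPM as deposited. Depth was roughly estimated as the sum of a library over its most frequent low value.

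The 10 genes, the lists of roles and the markers were chosen with earlier results of these data known. Named were the 10 genes, on each list the called genes or at least the 3 with the smallest p, the tested neighbours of Sdr9c7 within 300 kb, and the 5 genes most correlated with it among tested genes with a mean of at least 1 CPM of the deposited values, provisional and small-RNA names left out. Of the genes on the lists, Rdh16f1 and Adh6b matched no row, and Tf was matched as Trf. One gene of the lists is not reported here. Libraries were assigned by their column titles, and replicate numbers follow accession order and pair no libraries. Positions and 31-base stretches come from GENCODE vM21 for mm10. Promoter windows come from RefSeq on GRCm38.p6, with a window for all 10 genes and 14 windows in all. Alternatives changed the scaling, the table, the filter, the pseudocount, the variance and the library weights, and left out each library. Tables were made in Python 3.11.15 (pandas 2.3.3, numpy 2.4.6), and plots with matplotlib 3.10.9.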

Additional observations from a re-analysis of the deposited data

Results flagged for a closer look

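Among the 65 genes named, 8 of 130 sets of 4 libraries held a library far from the other 3, by its gap to the nearest of them over the whole range. Chance alone flags about 1 in 20 such sets. Among the 10 retinoid genes, Null 4 stood apart with 49930.7 normalized counts of Adh1, where Null 1 to 3 had 31507 to 32539. Null 4 also stood apart with 8307 counts of Rbp4, where Null 1 to 3 had 47380 to 54969. ATF3 1 stood apart in Lpl, with 505 against 309 to 335 in the other ATF3 libraries, and in Rxra, with 12123 against 10999 to 11169. It was low in Gls2, with 11521 against 13115 to 13200. Null 1 was low in Bdh1, with 3714 against 4436 to 4570 in the other Null libraries, and in Stat6, with 1709 against 1970 to 1995. ATF3 3 was low in Pcsk6, with 626 against 754 to 769. The causes of these values were not tested.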

How the results depend on the processing

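Of 100 log2 differences of the 10 genes under 10 processing alternatives, 89 stayed within the replicate spread, 9 moved beyond it and 2 reversed. The alternatives in filter and in robust variance leave a log2 difference unchanged, so their values, counted among the 89, could not move. Leaving out 1 library cannot shift a log2 difference beyond that spread as it was defined, so the 80 such values are no test. Without Null 4, Rbp4 went from -1.49 to -2.15 and passed. Rdh16 lost its pass without ATF3 1, ATF3 3 or ATF3 4. The Sdr9c7 log2 difference was -4.02 in TPM, -4.63 in rescaled TPM and -6.03 with a pseudocount of 10, and -6.51 to -6.33 without 1 library. The TPM value also carries the shift of all genes on that scale. In rescaled TPM, Sdr9c7 averaged 0.370 in ATF3 livers and 33.0 in Null livers. The 1 added before the log exceeds all those ATF3 values, so the log2 difference there understates the ratio of these means. In TPM, 440 of all genes were higher and 76 lower, and 2 retinoid pathway genes were higher and 0 lower. With library weights, 2271 genes were higher and 2130 lower, with 17 pathway genes lower. Leaving out 1 library gave 1040 to 1965 higher and 851 (without ATF3 3) to 1812 lower genes, and 7 to 14 (without Null 4) lower pathway genes. TPM reversed Rdh7 (0.23), Rdh16 (0.44), Lipe (0.20), Bco1 (0.17), Bco2 (0.64), Hsd17b13 (0.21), Adh4 (0.61), Aldh8a1 (0.83), Aox1 (0.78), Ncoa2 (0.41), Rxra (0.70), Rarb (0.086), Rai14 (0.13), Tgm2 (0.61), Lrp1 (0.87), Stat6 (0.46), Nemp1 (0.40), Zbtb39 (0.17), Gpr182 (0.82), Naca (0.92), Ptges3 (0.92), Baz2a (0.56) and Arl5a (0.071), and library weights reversed Naca (0.042). With 1 library left out, Adh7 ranged from -0.045 to 0.18, Naca from -0.17 to 0.023, Ptges3 from -0.23 to 0.0083 and Rbms2 from -0.051 to 0.12. The Rdh16 share difference ranged from -0.361 to 0.170 percentage points. Library weights brought Bco1, Adh4, Cyp2c29, Zbtb39, Rxra, Prim1 and Baz2a past the threshold. Beyond the added 1 for Sdr9c7, the causes of these changes were not tested. No paired analysis was possible because the replicate numbers follow accession order and pair no libraries. Low values such as those of Cyp26a1 and Rdh18-ps limit what these depths can show.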
